A study of Homo sapiens with 10 samples.

Results

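The genes examined here were the collagen chains, the laminin chains and the integrin subunits of HCT116, a human colorectal cancer cell line. They were taken by symbol, as genes named COL, digits, A and digits, as LAMA, LAMB or LAMC and a digit, and as ITGA or ITGB with digits or letters. *LAMA2* was left out of this list, as were the ITGB1BP and ITGB3BP genes, which encode integrin-binding proteins and no subunit. The rule found 58 genes among the 17642 of the siRNA experiment, with 28 collagens, 10 laminins, 13 integrin alpha and 7 integrin beta subunits. Of these, 37 were also among the 13029 genes of the *ZMAT3* knockout experiment (15 collagens, 9 laminins, 9 integrin alpha and 4 integrin beta subunits), and the other 21 were not analysed there.

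RNA-seq covered 10 HCT116 cultures, and the study names no drug treatment for them. Its methods describe capture of polyadenylated RNA for the *ZMAT3* knockout experiment, and no library type for the siRNA experiment. *ZMAT3* encodes an RNA-binding protein whose transcription p53 activates, and the experiments asked which RNAs depend on each. The first experiment had 3 *ZMAT3*-WT and 3 *ZMAT3*-KO cultures, where guides to the p53 response element in an intron of *ZMAT3* had been used and each genotype was grown from a single-cell clone. The spread between replicates is therefore that between cultures of a clone, and an effect of the knockout cannot be told apart from other differences between the clones. The labels also carry the abbreviations EV and unt, which were not interpreted. The second experiment had 2 cultures transfected with a control siRNA (siCTRL) and 2 with a pool of 4 p53 siRNAs (sip53), both for 72 hr.

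*ZMAT3* was 5.00, 5.20 and 5.26 log2 CPM (counts scaled to library size, on a log2 scale) in *ZMAT3*-WT and 2.25, 2.34 and 2.20 in *ZMAT3*-KO libraries. The targeted gene of the knockout thus followed the labels. Neither table holds read counts per library, so the depth of each library is unknown. The siRNA values come with only a mean of normalized counts per gene, pooled over the libraries. Replicates correlated over genes, which are not independent of each other, with Pearson's r of 0.995 to 0.996 in the *ZMAT3* experiment, 0.976 for siCTRL and 0.972 for sip53. The 95% interval of a log2 fold change reached a median of 0.119 to either side over the 37 genes of the *ZMAT3* experiment and 0.628 over the 34 tested in the siRNA experiment, so small differences could be seen in the former only. In bulk RNA, fewer cells that make a transcript and less transcript per cell cannot be told apart.

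Collagens are trimers of chains that build fibrils, networks and filaments outside the cell. Laminins are trimers of an alpha, a beta and a gamma chain, and with network-forming collagen IV they make the sheet, the basement membrane, on which epithelial cells sit. Integrins are pairs of an alpha and a beta subunit that span the cell membrane, bind collagens, laminins or fibronectin outside, and connect through adaptor proteins to the cytoskeleton. Gut epithelial cells hold on to their basement membrane with laminin-binding integrins, and many fibrillar collagens of the gut wall are made by stromal cells in place of the epithelium.

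HCT116 cells expressed part of each family. The mean over the 4 libraries, sip53 included, was at least 0.5 FPKM for 14 of 28 collagens and 9 of 10 laminins. The same held for 7 of 13 integrin alpha and 4 of 7 integrin beta subunits, with no test between families. Among the laminins, *LAMA4* passed only through its sip53 libraries, at 0.90 and 0.94 against 0.38 and 0.37 FPKM with siCTRL. FPKM (fragments per kilobase of transcript, scaled to library size) takes transcript length into account, so that the levels of different genes can be set side by side. With siCTRL, 3 of the 58 genes had a mean over 100 FPKM, 18 lay from 10 to 100, 9 from 1 to 10 and 28 under 1 FPKM. The 3 highest were all integrin subunits. *ITGB4*, the beta subunit of the hemidesmosome receptor for laminin, was at 601 and 355 FPKM with siCTRL and at 258 and 501 with sip53. *ITGB1*, the partner of most collagen, laminin and fibronectin receptors, was at 181 and 154 FPKM with siCTRL, and *ITGA3*, a laminin-binding alpha subunit, at 129 and 106. The order of these 3 held in both siCTRL libraries.

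Among the other families the highest siCTRL levels were closer together. *COL6A1* was at 66.2 and 52.0 FPKM and *COL6A2* at 52.7 and 53.2, so these chains of the beaded filament collagen VI did not differ beyond their spread. Their usual partner *COL6A3* was at 0.03 FPKM in both siCTRL libraries. The highest laminin was *LAMB2*, with 42.7 and 34.4 FPKM in siCTRL, and the next was *LAMB1* with 29.6 and 27.8. *COL4A1* and *COL4A2*, the chains of the widespread basement membrane collagen IV, did not exceed 0.14 FPKM in any of the 4 libraries, while *COL4A5* was at 8.27 and 8.79 FPKM with siCTRL. For 24 of the 58 genes the mean over the 4 libraries was under 0.5 FPKM, with no single value above 0.98 FPKM, and these were not tested. Of the 24, 5 were listed at 0 in at least 1 library, and 5 had values in the *ZMAT3* experiment.

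**Figure D1:**
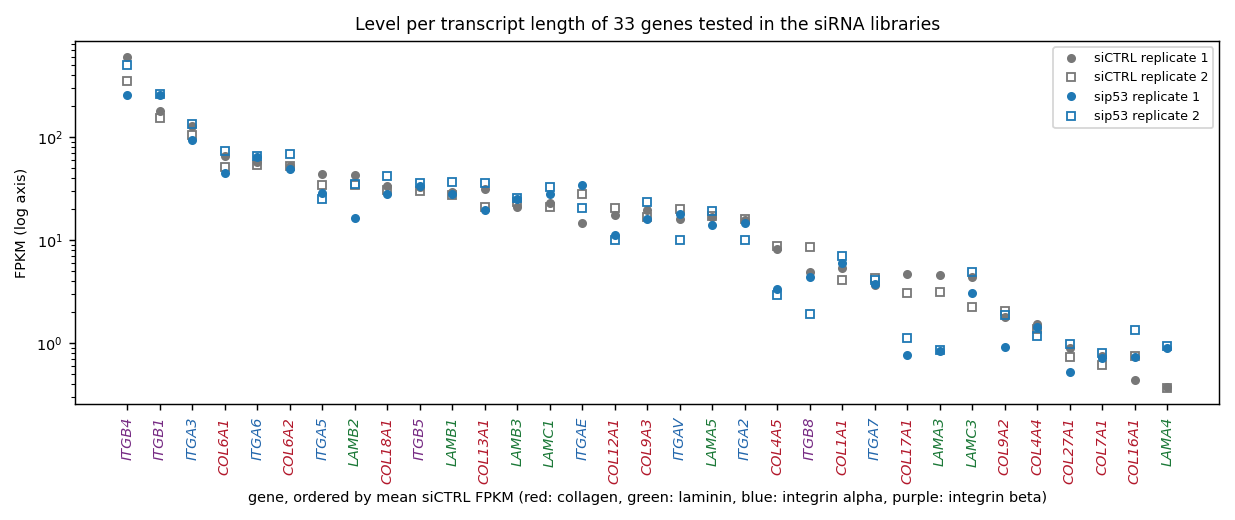
FPKM (log axis) of 33 of the 34 genes tested in the siRNA experiment, ordered by their siCTRL mean, with circles for replicate 1 and squares for replicate 2, grey for siCTRL and blue for sip53. *ITGB4*, *ITGB1* and *ITGA3* lie above 100 FPKM in siCTRL, and the grey and blue points of *COL4A5*, *COL17A1* and *LAMA3* lie apart.

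The upstream sequences of *COL4A5*, *COL17A1* and *LAMA3* are shown, since these 3 genes had the largest falls with sip53. Each is the 250 bases before the RefSeq start on GRCh38.p14, printed 5′ to 3′ along the gene's own strand. Capitals mark matches to the AP-1 motif TGANTCA or the GC box GGGCGG, searched on both strands. The first motif, with any base at N, is looser than TGASTCA (S is C or G), which the study gives as the JUN-binding motif. The second is bound by SP factors. The windows are chrX:108439588-108439837 (plus strand) for *COL4A5*, chr10:104085881-104086130 (minus) for *COL17A1* and chr18:23872770-23873019 (plus) for *LAMA3*.
COL4A5: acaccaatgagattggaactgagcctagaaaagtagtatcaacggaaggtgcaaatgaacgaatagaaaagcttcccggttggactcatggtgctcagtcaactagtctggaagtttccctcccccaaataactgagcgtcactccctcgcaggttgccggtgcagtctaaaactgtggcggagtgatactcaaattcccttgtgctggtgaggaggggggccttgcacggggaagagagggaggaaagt
COL17A1: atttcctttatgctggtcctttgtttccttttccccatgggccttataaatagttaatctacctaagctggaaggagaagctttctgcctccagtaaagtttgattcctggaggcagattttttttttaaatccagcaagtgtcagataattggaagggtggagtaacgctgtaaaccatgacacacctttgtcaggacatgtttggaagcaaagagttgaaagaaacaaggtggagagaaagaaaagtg
LAMA3: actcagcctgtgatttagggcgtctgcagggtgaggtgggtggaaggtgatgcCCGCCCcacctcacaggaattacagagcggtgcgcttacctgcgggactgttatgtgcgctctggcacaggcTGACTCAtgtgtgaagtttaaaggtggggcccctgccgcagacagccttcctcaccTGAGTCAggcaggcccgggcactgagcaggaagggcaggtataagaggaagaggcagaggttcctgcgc

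The *LAMA3* window held 2 AP-1 matches, 125 and 69 bases before the start, and a GC box 197 bases before it. This RefSeq start lies inside the GENCODE gene, which runs from chr18:23689453-23956222, as *LAMA3* has an upstream start for a longer chain. Neither motif was in the *COL4A5* or the *COL17A1* window, and the latter had the lowest GC content of the 3, at 40.4% against 51.2% for *COL4A5* and 60.4% for *LAMA3*. *COL4A5* starts 379 bases from *COL4A6*, which is read the other way, so its window also lies in the stretch between these genes. Over the 43 genes with a RefSeq window, AP-1 matches were in 2 (*LAMA3* and *LAMB3*, 4.65%), against 8.06% of 27305 genes with windows of the same kind. GC boxes were in 29 of the 43 (67.4%), against 46.2% of all genes, and the full p53 consensus site without spacer was in 0 of the 43, against 0.022%. A gene counted when any of its windows matched, with 35116 windows over the 27305 genes. The 43 genes were not matched to all genes by gene type or number of windows. A match is a run of letters and says nothing of binding.

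In *ZMAT3*-KO cells, collagens, laminins and integrins moved in both directions. A gene was called when its limma adjusted p was under 0.05 and it differed at least 1.5-fold. By this rule 5 of the 37 genes were higher in *ZMAT3*-KO cells (*COL4A5*, *ITGB4*, *ITGA2*, *COL17A1* and *LAMB2*), against 4.6% of all 13029 genes. In the other direction 4 were lower (*COL12A1*, *ITGB8*, *COL9A3* and *LAMC3*), against 4.37% of all genes. Together the 9 are 24.3% of the 37. Without the fold threshold 14 were higher, against 28.7% of all genes, and 13 lower, against 30.1%. The median log2 fold change of the 37 was 0.03 and that of all genes -0.01, but the median size of the change, whatever its sign, was 0.38 against 0.17. The smallest two-sided p an exact permutation test allows for 3 against 3 libraries is 0.1, so single genes were tested in the fit over all genes.

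**Figure D2:**
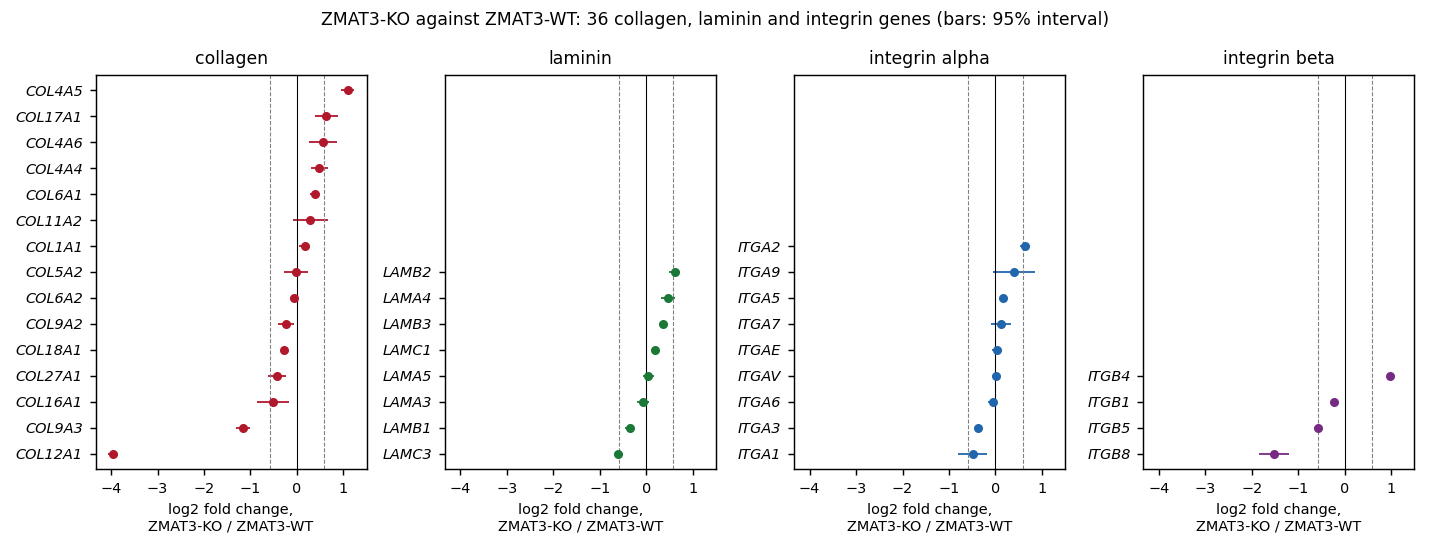
Log2 fold change between *ZMAT3*-KO and *ZMAT3*-WT cells for 36 of the 37 genes, in panels by family, with 95% intervals as bars and the 1.5-fold threshold as dashed lines. *COL12A1* at -3.96 lies far to the left of the other genes, and the 5 called higher genes lie beyond the right dashed line.

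Collagens gave the largest difference. *COL12A1* encodes a collagen that sits on the surface of collagen I fibrils, and lies at chr6:75084326-75206267 of hg38 on the minus strand. It was 7.02, 7.05 and 7.12 log2 CPM in *ZMAT3*-WT and 3.08, 3.21 and 3.02 in *ZMAT3*-KO libraries. Every *ZMAT3*-KO library was thus far below every *ZMAT3*-WT library. The means were 7.07 ± 0.05 (SD, n = 3) and 3.10 ± 0.10 (SD, n = 3), a 15.6-fold decrease (log2 fold change -3.96 with a standard error of 0.050, limma adjusted p = 5.69e-15). *COL9A3*, a chain of collagen IX, which decorates cartilage fibrils, was 3.67, 3.59 and 3.47 log2 CPM in *ZMAT3*-WT and 2.44, 2.37 and 2.41 in *ZMAT3*-KO libraries. It fell 2.25-fold, with a log2 fold change of -1.17 (with a standard error of 0.068, limma adjusted p = 1.86e-08). The other fibril-associated collagens measured, *COL16A1* (log2 fold change -0.51, limma adjusted p = 0.0150) and *COL9A2* (-0.24, limma adjusted p = 0.0228), were lower by less than 1.5-fold. All 4 chains of this class were therefore on the lower side at an adjusted p of 0.05, a rule by which 30.1% of all genes were lower.

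Basement membrane collagen IV went the other way. *COL4A5* (chrX:108439838-108697545, plus strand), a chain found in networks with *COL4A3* and *COL4A4* or with *COL4A6*, was 3.18, 3.44 and 3.39 log2 CPM in *ZMAT3*-WT and 4.40, 4.48 and 4.40 in *ZMAT3*-KO libraries. The groups did not overlap, and *COL4A5* was 2.13-fold higher (log2 fold change 1.09 with a standard error of 0.067, limma adjusted p = 3.21e-08). Its divergent neighbour and partner *COL4A6* was 0.27, 0.60 and 0.59 log2 CPM against 1.11, 1.05 and 1.00. At a log2 fold change of 0.56 (limma adjusted p = 0.00402) it stayed under the fold threshold. *COL4A4* also did, at 0.48 (limma adjusted p = 0.000421). *COL17A1*, a transmembrane collagen of hemidesmosomes that binds the *ITGA6* and *ITGB4* pair, was 1.04, 1.41 and 1.30 log2 CPM in *ZMAT3*-WT and 1.82, 1.95 and 1.87 in *ZMAT3*-KO libraries. It was 1.55-fold higher (log2 fold change 0.63 with a standard error of 0.114, limma adjusted p = 0.000447), and without *ZMAT3*-WT replicate 1 its log2 fold change of 0.53 fell short of the fold threshold. Of the 15 collagens 2 were called higher and 2 lower, against 4.6% and 4.37% of all genes. Both abundant collagen VI chains lay within the threshold, *COL6A1* at 0.38 and *COL6A2* at -0.06 on the log2 scale.

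Among the laminins, 2 genes passed both thresholds. *LAMB2*, the beta chain of many adult basement membranes, was 5.12, 4.95 and 4.87 log2 CPM in *ZMAT3*-WT and 5.60, 5.63 and 5.56 in *ZMAT3*-KO libraries, which was 1.53-fold higher (log2 fold change 0.62 with a standard error of 0.055, limma adjusted p = 1.03e-06). *LAMC3*, a gamma chain of less widespread laminins, was 4.65, 4.63 and 4.56 log2 CPM against 4.04, 4.04 and 3.95, a 1.52-fold decrease (log2 fold change -0.60 with a standard error of 0.047, limma adjusted p = 3.31e-07). Both changes had no overlap between groups and lay just past the fold threshold. *LAMB2* fell short of it without *ZMAT3*-WT replicate 3 (0.56), and *LAMC3* without *ZMAT3*-WT replicate 1 (-0.58) or *ZMAT3*-KO replicate 3 (-0.57).

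Chains of the epithelial laminin of hemidesmosomes lay within the fold threshold. *LAMA3* was 3.18, 3.25 and 3.26 log2 CPM in *ZMAT3*-WT and 3.23, 3.18 and 3.09 in *ZMAT3*-KO libraries, with overlapping groups and a log2 fold change of -0.06 (95% interval -0.20 to 0.07). Its partner *LAMB3* had a log2 fold change of 0.37 with a limma adjusted p of 3.12e-05, below 1.5-fold. Among the chains that can pair with *LAMB2*, *LAMA4* was at 0.47, *LAMC1* at 0.18 and *LAMA5* at 0.05 on the log2 scale, and the alternative beta chain *LAMB1* was at -0.36. Of the 9 laminins 1 was called higher and 1 lower, against 4.6% and 4.37% of all genes. By the adjusted p alone 5 were higher and 2 lower, against 28.7% and 30.1% of all genes. *LAMA2*, which the list leaves out, rose from 3.35 ± 0.04 to 5.57 ± 0.05 log2 CPM (SD, n = 3 in each), a log2 fold change of 2.23.

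Integrin beta subunits diverged. *ITGB4* (chr17:75721328-75757818, plus strand), which pairs only with *ITGA6*, was 6.75, 6.78 and 6.79 log2 CPM in *ZMAT3*-WT and 7.73, 7.75 and 7.74 in *ZMAT3*-KO libraries. The increase was 1.96-fold (log2 fold change 0.97 ± 0.027, SE, limma adjusted p = 1.54e-11) and had the smallest standard error of the 9 called genes. Its partner *ITGA6* was 6.58, 6.73 and 6.66 against 6.56, 6.67 and 6.56 log2 CPM, so these groups overlapped (log2 fold change -0.06, 95% interval -0.15 to 0.03). *ITGB8*, which pairs with *ITGAV* to bind and activate latent TGF-beta, was 1.72, 1.38 and 1.73 log2 CPM in *ZMAT3*-WT and 0.14, 0.23 and -0.08 in *ZMAT3*-KO libraries. It fell 2.86-fold (log2 fold change -1.52 with a standard error of 0.148, limma adjusted p = 2.48e-06). *ITGAV* itself was at 0.01 on the log2 scale, with a 95% interval from -0.08 to 0.09.

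*ITGB5*, another partner of *ITGAV*, was 6.11, 6.10 and 6.09 log2 CPM against 5.49, 5.51 and 5.54. Its log2 fold change of -0.58 (limma adjusted p = 1.16e-08) was the nearest to the fold threshold among the genes not called. *ITGB1* was lower by 0.23 on the log2 scale, from 8.93, 9.02 and 9.02 to 8.72, 8.80 and 8.77 log2 CPM, also below the fold threshold. *ITGA2*, the alpha subunit of the main epithelial collagen receptor, was 5.26, 5.41 and 5.38 log2 CPM in *ZMAT3*-WT and 5.91, 6.09 and 5.97 in *ZMAT3*-KO libraries. It was the only integrin alpha subunit of 9 that was called, 1.56-fold higher (log2 fold change 0.64 with a standard error of 0.051, limma adjusted p = 3.79e-07). By the same rule 4.6% of all genes were called higher. The other collagen-binding alpha subunit measured, *ITGA1*, had a log2 fold change of -0.49 and the abundant laminin-binding *ITGA3* one of -0.38, both below 1.5-fold.

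**Figure D3:**
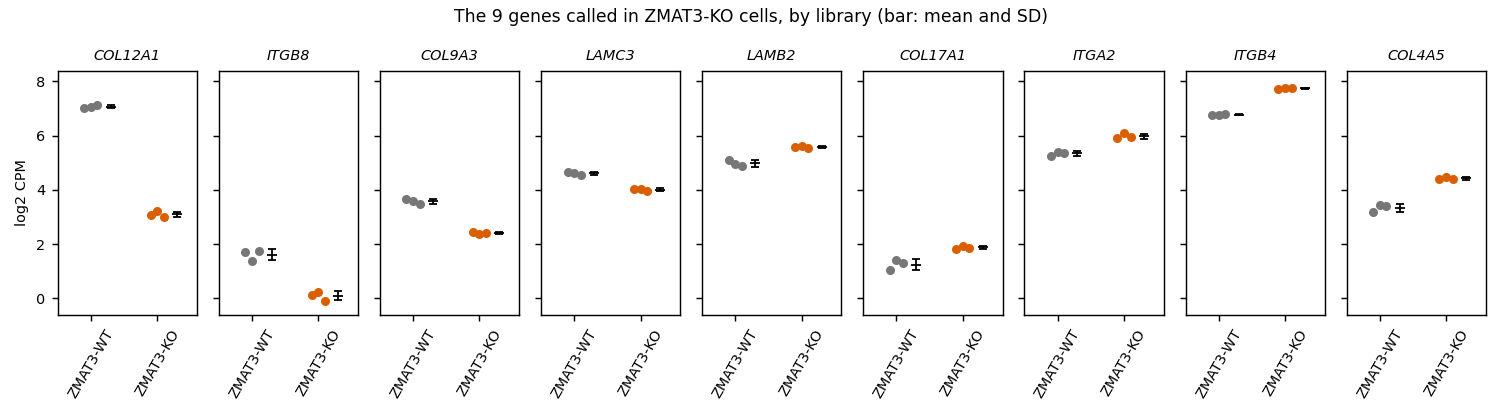
Log2 CPM of the 9 called genes in each of the 3 *ZMAT3*-WT (grey) and 3 *ZMAT3*-KO (orange) libraries, with the mean and SD beside them, ordered from the largest decrease to the largest increase. In every panel the 3 orange points lie on the same side of the 3 grey points, from 3.02 to 3.21 against 7.02 to 7.12 for *COL12A1*.

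With sip53, genes of the 3 families were again called in both directions. Genes were called at an unadjusted limma p of 0.05 on the scale of log2(FPKM + 0.1), which understates the change of low genes. By this rule 2 of the 34 tested genes were higher with sip53 (*ITGB1* and *LAMA4*), against 5.86% of all 14274 genes tested. In the other direction 5 were lower (*LAMA3*, *COL17A1*, *COL4A5*, *COL12A1* and *ITGA5*), against 9.28% of all genes. Over all genes there were 836 calls higher and 1325 lower, or 1120 higher and 1048 lower once each library was centred on its median gene, a setting that called 3 of the 34 higher and 4 lower. Of the 34 log2 fold changes 16 were above 0 and 18 below. None of the 34 passed a limma adjusted p of 0.05, beside the 7 at the unadjusted p, and that rule called 39 of all genes, 0.273%. The median log2 fold change of the 34 was -0.02 and that of all genes -0.04, with median sizes of 0.33 and 0.28. For 2 against 2 libraries the smallest two-sided p of an exact permutation test is 0.333.

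The 3 largest decreases were in *LAMA3*, *COL17A1* and *COL4A5*. *LAMA3*, the alpha chain of the epithelial laminin, was at 4.58 and 3.16 FPKM with siCTRL and at 0.84 and 0.86 with sip53. Its log2 fold change was -2.04 (with a standard error of 0.296, limma adjusted p = 0.0961). *COL17A1*, which is anchored next to that laminin in hemidesmosomes, was at 4.70 and 3.09 FPKM with siCTRL and at 0.77 and 1.13 with sip53, a log2 fold change of -1.92 (with a standard error of 0.340, limma adjusted p = 0.121). *COL4A5* was at 8.27 and 8.79 FPKM with siCTRL and at 3.40 and 2.96 with sip53, a log2 fold change of -1.40 (with a standard error of 0.196, limma adjusted p = 0.0886). In all 3 the higher sip53 value was below the lower siCTRL value by more than the replicates of either group differed. These 3 were called with any library left out.

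Their partners showed no decrease of that size. *LAMB3* was at 21.0 and 23.8 FPKM with siCTRL and 25.4 and 26.0 with sip53 (log2 fold change 0.20, 95% interval -0.24 to 0.64). *COL4A4* was at 1.54 and 1.39 against 1.43 and 1.19 FPKM (log2 fold change -0.15, 95% interval -0.89 to 0.58). *COL4A6* was under the filter, with 0.37 and 0.43 FPKM in siCTRL and 0.33 and 0.22 in sip53 libraries. *ITGB4* had a log2 fold change of -0.36, but its values overlapped and the 95% interval ran from -1.41 to 0.69. *ITGA6* was at 57.8 and 53.9 FPKM against 64.6 and 66.4 (log2 fold change 0.23, 95% interval -0.20 to 0.66).

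*COL12A1* was at 17.7 and 20.4 FPKM with siCTRL and at 11.2 and 10.1 with sip53, a log2 fold change of -0.83 (with a standard error of 0.185, limma adjusted p = 0.163). The call was lost without siCTRL replicate 2, where the log2 fold change was -0.73. *ITGA5*, the alpha subunit of the fibronectin receptor, was at 44.1 and 34.8 FPKM with siCTRL and at 28.6 and 25.4 with sip53 (log2 fold change -0.54 with a standard error of 0.204, limma adjusted p = 0.310). Its call was lost with any of the 4 libraries left out, with log2 fold changes from -0.71 to -0.37.

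The 2 genes called higher differed widely in level. *ITGB1*, the common beta subunit, was at 181 and 154 FPKM with siCTRL and at 261 and 265 with sip53 (log2 fold change 0.66 with a standard error of 0.193, limma adjusted p = 0.223). *LAMA4*, a laminin alpha chain known from vessels and muscle, was at 0.38 and 0.37 FPKM with siCTRL and at 0.90 and 0.94 with sip53 (log2 fold change 1.10 with a standard error of 0.399, limma adjusted p = 0.294). *LAMA4* passed the filter on low values only through its sip53 libraries. Neither call held with any of the 4 libraries left out, where *ITGB1* was from 0.54 to 0.78 and *LAMA4* from 1.07 to 1.13 on the log2 scale. *LAMC1*, the gamma chain of most laminins, narrowly missed the threshold and was not called. It was at 23.2 and 20.9 FPKM with siCTRL and 28.2 and 32.9 with sip53 (log2 fold change 0.47, limma adjusted p = 0.330). Of the untested low genes, *COL6A3* went from 0.03 in both siCTRL libraries to 0.26 and 0.22 FPKM.

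**Figure D4:**
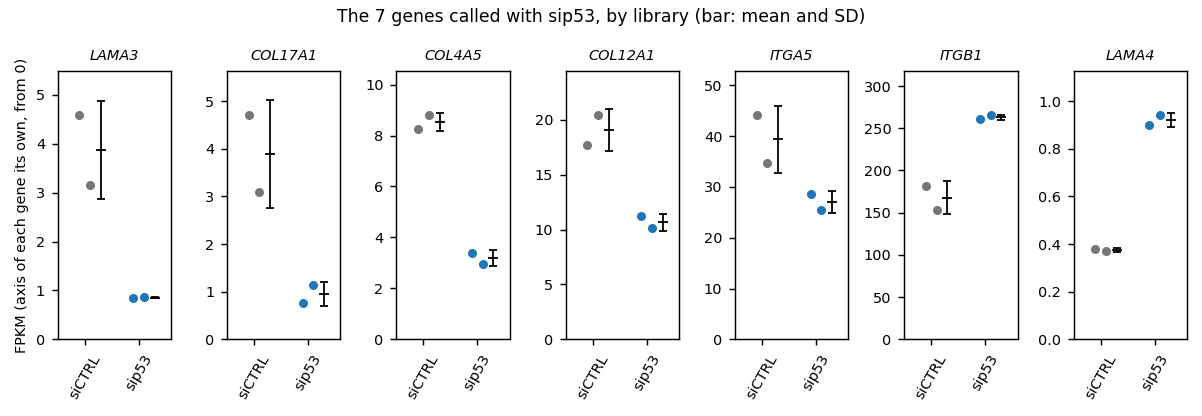
FPKM of the 7 called genes in the 2 siCTRL (grey) and 2 sip53 (blue) libraries, with the mean and SD beside them and an axis from 0 for each gene. The groups do not overlap in any panel, and the siCTRL points of *LAMA3* and *COL17A1* are spread more widely than their sip53 points.

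The values of 32 genes could be set side by side in both experiments, which share no libraries. Of these, 3 (9.38%) were called in both and 10 in only 1 of them. Of all 11370 genes tested in both, 221 (1.94%) were called in both, 125 in the same and 96 in opposite directions. *COL12A1* was lower in both, at a log2 fold change of -3.96 in the knockout and of -0.83 with sip53. *COL4A5* rose in *ZMAT3*-KO cells (1.09) but fell with sip53 (-1.40), as did *COL17A1* (0.63 and -1.92). *ZMAT3* itself was at 12.0 and 13.6 FPKM with siCTRL and at 3.16 and 1.97 with sip53. *LAMA3* had the largest fall with sip53 and a log2 fold change of -0.06 in *ZMAT3*-KO cells. *ITGB8* was at 4.94 and 8.56 FPKM with siCTRL and at 4.40 and 1.94 with sip53, which did not pass the test (log2 fold change -1.12, limma adjusted p = 0.342). *COL9A3* had overlapping values in the siRNA experiment, with a log2 fold change of 0.10 (95% interval -0.52 to 0.73). The values of *LAMC3* also overlapped there (0.29, 95% interval -0.74 to 1.32). *ITGA2* and *LAMB2*, called higher in *ZMAT3*-KO cells, had log2 fold changes of -0.38 and -0.67 with sip53, neither past the test. No test of the difference between the experiments was made, as the tables were normalized separately.

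**Figure D5:**
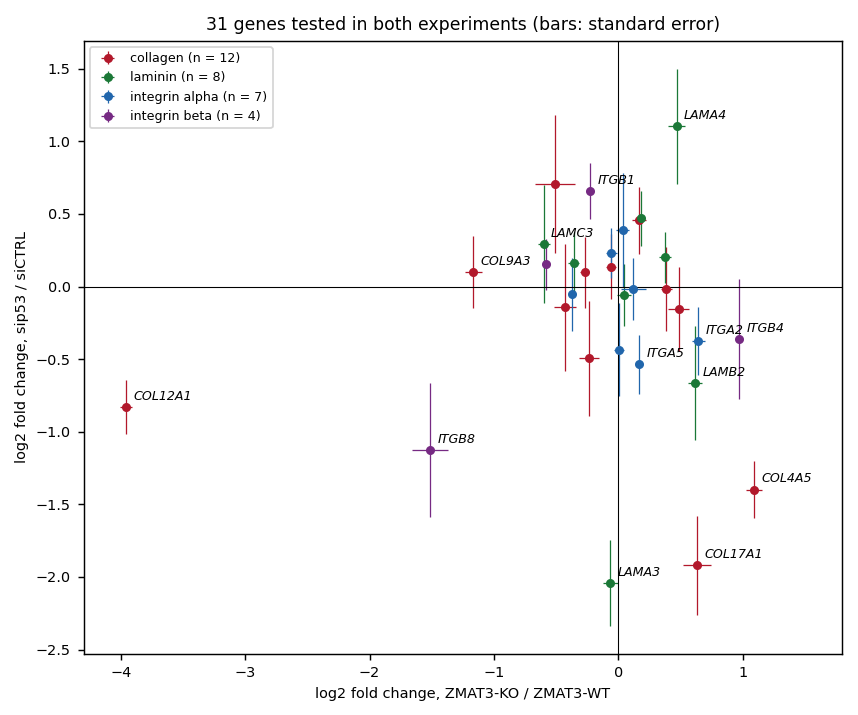
Log2 fold change in *ZMAT3*-KO cells (horizontal axis) and with sip53 (vertical axis) of 31 of the 32 genes tested in both experiments, coloured by family, with standard errors as bars and names for genes called in either. *COL12A1* lies alone at the left and below 0, while *COL4A5* and *COL17A1* lie at the lower right.

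Genes that work with these chains were taken from 6 lists. Each count of calls below stands against the share of all genes called. This was 4.6% higher and 4.37% lower in the *ZMAT3* experiment, and 5.86% higher and 9.28% lower with sip53. No test of a list was made, and genes were sought under the listed symbol only. Enzymes and chaperones of collagen assembly were called higher in 1 and lower in 5 of 25 measured in the *ZMAT3* experiment, with a median log2 fold change of -0.06 against -0.01 for all genes. The largest changes were decreases in *TLL1* (-1.47), a procollagen protease, *LOXL4* (-1.33), a crosslinking oxidase, and *ADAMTS14* (-1.28), which removes procollagen ends. *CRTAP* (-0.98), of the prolyl hydroxylation complex, and *TLL2* (-0.69) were also lower, and *ADAMTS2* higher (0.62). With sip53, 3 of 20 tested were higher and 3 lower (median 0.06 against -0.04 for all genes). *LOXL4* (-1.53) and *ADAMTS14* (-1.41) were called lower here too, and the related *ADAMTS2* was called higher (1.36). Of the rest, *P4HA1* (0.74), a prolyl hydroxylase, and the oxidase *LOXL2* (0.47) were higher and the protease *BMP1* (-0.81) lower. *LOXL4* was at 1.41 and 1.45 FPKM with siCTRL and at 0.54 and 0.34 with sip53. It passed the filter on low values through its siCTRL libraries, as its sip53 mean was 0.44 FPKM.

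Basement membrane partners of laminin and collagen IV were called lower in 3 and higher in 0 of 8 in the *ZMAT3* experiment (median -0.18). These were *TINAGL1* (-1.86), a secreted matrix glycoprotein, *NTN4* (-1.03), a laminin-related netrin, and *FRAS1* (-0.69), which links epithelium to the matrix below it. With sip53, 1 of 9 was higher and 3 lower (median -0.22). *HSPG2*, which encodes perlecan, was at 36.4 and 26.0 FPKM with siCTRL and at 9.65 and 15.8 with sip53, a log2 fold change of -1.31. *SPARC*, a collagen-binding glycoprotein, was also lower (-0.72), as was *TINAGL1* (-0.68), and *FBLN1*, a fibulin, higher (0.85).

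Integrin ligands other than collagens and laminins were all called in the *ZMAT3* experiment, 2 higher and 4 lower of the 6 measured, with a median of -1.12. *CCN2*, a secreted matricellular protein, fell from 4.37, 4.47 and 4.14 to 0.56, 0.20 and 0.92 log2 CPM, a log2 fold change of -3.77. *CCN1*, of the same family, fell by 1.82 and *THBS1*, which encodes thrombospondin, by 1.36 on the log2 scale. *FN1*, which encodes fibronectin, was the remaining decrease (-0.88), and *SPP1* (1.03), or osteopontin, and *CCN3* (0.86) rose. Under the symbols *CCN1*, *CCN2* and *CCN3* no values were found in the siRNA experiment. Other names were not searched, so these genes were not tested there. With sip53, 0 of the 3 ligands tested were higher and 1 lower (median -0.52). This was *THBS1*, at 11.2 and 14.0 FPKM with siCTRL and 7.63 and 5.07 with sip53 (log2 fold change -0.99, limma adjusted p = 0.201).

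Matrix receptors that are no integrins were called higher in 0 and lower in 1 of 9 in the *ZMAT3* experiment (median -0.07), the proteoglycan *SDC4* (-0.63). With sip53, 0 of 9 were higher and 3 lower (median -0.36). *DDR1*, a collagen-binding kinase, was at 136 and 131 FPKM with siCTRL and at 55.2 and 54.8 with sip53 (log2 fold change -1.27, limma adjusted p = 0.0837). The laminin receptors *BCAM* (-0.97) and *DAG1* (-0.68) were the other 2.

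Adaptors between integrins and the cytoskeleton were called higher in 2 and lower in 1 of 31 in the *ZMAT3* experiment (median 0.02). These counts were near the 4.6% and 4.37% of all genes. The talin *TLN2* (0.98) and the kindlin *FERMT1* (0.87) rose and the tensin *TNS3* (-0.70) fell. With sip53, 2 of 31 were higher and 3 lower (median -0.21), near the 5.86% and 9.28% of all genes. The called genes were the kindlin *FERMT2* (1.21) and *ITGB1BP1* (0.53), which binds integrin tails, on the higher side, and the tensins *TNS3* (-0.84) and *TNS1* (-0.77) and the parvin *PARVA* (-0.75) on the lower side. *TNS3* was thus lower in both experiments.

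Matrix proteases and their inhibitors were called higher in 3 and lower in 0 of 8 in the *ZMAT3* experiment (median 0.04). *MMP14*, a membrane-bound collagenase, rose from -1.32, -0.43 and -1.04 to 2.97, 2.91 and 2.93 log2 CPM, a log2 fold change of 3.86. *MMP16*, of the same membrane type, was at -6.62, -4.79 and -4.15 log2 CPM in *ZMAT3*-WT and at -0.20, 0.20 and 0.59 in *ZMAT3*-KO libraries. Its *ZMAT3*-WT values were all under -3.81. That is the level of 3 reads when the lowest log2 CPM is taken as 0 reads and an offset of 0.5. The *ZMAT3*-KO mean of *MMP16* was 16.1-fold above this level. As the values share 1 distribution over the libraries, the level is a rough guide and no bound. *MMP11* was higher by 0.72 on the log2 scale. With sip53, 1 of 9 was higher and 1 lower (median -0.02), the inhibitor *TIMP2* (0.51) and the protease *MMP17* (-0.59), while *MMP14* was at 8.47 and 7.92 FPKM with siCTRL and 6.87 and 9.51 with sip53.

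Most, but not all, listed markers of the labelled cell type were present. Of 13 epithelial markers 9 were measured in the *ZMAT3* experiment, with 0 called higher and 3 lower, against 4.6% and 4.37% of all genes. The 3 were *KRT19* (-1.75), *KRT8* (-0.94) and *KRT18* (-0.82). The summed level of the 9 was 5940 to 6280 CPM in *ZMAT3*-WT and 3360 to 3460 in *ZMAT3*-KO libraries. *EPCAM* was at 8.54 ± 0.03 and 8.55 ± 0.03 log2 CPM (SD, n = 3 in each). With sip53, 1 of 9 tested was higher (*EPCAM*, 0.60) and 0 lower, against 5.86% and 9.28% of all genes. The epithelial sums were 3970 to 4290 FPKM with siCTRL and 3840 to 4430 with sip53. In these libraries *VIL1* did not exceed 0.22 FPKM and *CDH17* did not exceed 0.09 FPKM. *CDX1* and *LGALS4* had no values in either experiment. Of 9 fibroblast markers 2 were measured in the *ZMAT3* experiment, *TAGLN* and *ACTA2*, both called lower, with sums of 7.09 to 8.66 CPM in *ZMAT3*-WT and 3.62 to 4.35 in *ZMAT3*-KO libraries.

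In the siRNA experiment the fibroblast sum was 23.3 to 28.6 FPKM with siCTRL and 2.84 to 3.80 with sip53, of which *ACTA2* made up most (26.3 and 21.5 against 1.74 and 1.68 FPKM). *PDGFRB* did not exceed 0.23 FPKM, and *PDGFRA*, *DCN* and *LUM* were not analysed here. Endothelial markers were not analysed in the *ZMAT3* experiment, and the 2 measured in the siRNA experiment summed to at most 0.22 FPKM. Of the leukocyte markers *CD68* was called higher in the *ZMAT3*-KO libraries (0.98) and in the sip53 libraries, where it was at 7.97 and 2.06 FPKM with siCTRL and 11.6 and 26.9 with sip53. *CSF1R* did not exceed 0.29 FPKM in the siRNA experiment, and the other leukocyte markers on the list had no values in either experiment. Some marker values differed between groups, while others, such as the epithelial sums with sip53, overlapped. The part of the markers in the changes above was not tested.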

How the data were processed

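RNA-seq values of 10 HCT116 cultures were used, grouped by their labels. For the *ZMAT3* experiment the authors used Cutadapt for trimming, STAR for alignment to hg38 and RSEM for quantification, and deposited log2 CPM values that share 1 distribution over the 6 libraries. For the siRNA experiment the submitters' processing notes name CASAVA 1.8.2, FastQC 0.11.2 and TopHat2 2.0.8 and the builds hg19 and hg38, without saying which table each was used for. The values the authors deposited there were read as FPKM: for 166 single-transcript genes, value times length over the deposited mean signal had a median of 34.2, against 32.4 if FPKM and 42.2 if TPM. The authors' fold changes, standard errors, test scores and p-values in both deposited tables were not used. Read counts per library were not analysed here, so the depth and counting error of each library are unknown.

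Each experiment was fitted on its own over all genes with limma 3.58.1 in R 4.3.3 (two-sided, lmFit and eBayes with a trend of variance on level, adjusted by Benjamini and Hochberg), the *ZMAT3* values unfiltered and the siRNA values as log2(FPKM + 0.1) at a mean of at least 0.5 FPKM. Calls followed the study's thresholds: an adjusted p of 0.05 with a 1.5-fold change, and an unadjusted p of 0.05. The p-values measure the spread between cultures of a clone or transfection, which may be partly technical. Every called gene, the partner chains of called genes, the highest gene of each family and up to 3 called genes of each list are named; *ZMAT3* and *LAMA2* are named besides, and *COL6A3*, *COL4A1*, *COL4A2*, *LAMC1*, *ITGB5*, the marker genes beyond the called ones and further called genes of the lists were picked after their values were seen. The genes, lists and rules were chosen with earlier results of these data known. Same-numbered replicates were checked for pairing and were not paired. Alternatives were a pseudocount of 1, other filters (a mean over 0 log2 CPM, over 5 FPKM, or none), median centring, no variance trend, a replicate block, other thresholds and leaving out each library.

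Gene coordinates are from GENCODE release 44 on hg38, by symbol, for all 58 genes. Called genes shared at most 3.2% of their exon bases with another annotated gene. Upstream sequences are from RefSeq GRCh38.p14. Tables and figures were made with Python 3.11.15, pandas 2.3.3, numpy 2.4.6, scipy 1.17.1 and matplotlib 3.10.9. Proteomics and the siZMAT3 and Nutlin experiments were not analysed here, and the values of 2 genes are not reported here.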

Additional observations from a re-analysis of the deposited data

How the results depend on the processing

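In the *ZMAT3* experiment the counts of 5 genes higher and 4 lower became 14 and 13 without the fold threshold and 1 and 3 at a fold change of 2. With each library left out they ranged from 4 to 6 and from 3 to 6. *COL17A1* and *LAMC3* fell short of the fold threshold with a pseudocount of 1 CPM (0.47 and -0.57). In the siRNA experiment the 2 genes called higher became 6 with no filter on low FPKM (with *LAMC1*, *ITGA2B*, *COL6A3* and *ITGAM*), 0 at an adjusted p of 0.05 and 0 to 0 with each library left out. The 5 called lower became 3 at a mean of at least 5 FPKM, where *LAMA3* and *COL17A1* were not tested, 0 at an adjusted p of 0.05, and 3 to 7 with each library left out, the 3 without siCTRL replicate 2. Leaving out a library left 1 sample in its group, which was assumed to vary like the other group. *ITGA5* was not called after median centring (-0.46) or without the variance trend. None of the 9 and 7 called genes changed direction under the alternatives run.

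Deviations of same-numbered replicates correlated at -0.093 to -0.022 in the *ZMAT3* experiment and at -0.616 in the siRNA experiment. Same numbers thus mark no pairing. In the siRNA experiment, siCTRL replicate 1 deviated with sip53 replicate 2 and against sip53 replicate 1. The main fit has no term for this, so it counts as spread between replicates there. With a replicate block the *ZMAT3* counts stayed at 5 and 4, and the siRNA counts were 0 higher and 5 lower: *ITGB1*, *LAMA4* and *ITGA5* were no longer called, and *ITGB8* (-1.12) was called lower. The crossed pairing, added after the data had been seen, gave 6 higher and 10 lower of the 34, and 16.9% higher and 21.9% lower of all genes. The cause of these moves was not tested. The depth of each library is unknown, and genes at 0 were given no detection limit in the siRNA experiment.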

Other observations

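Genes within 1 Mb of *COL12A1* with values in the *ZMAT3* experiment differed little between *ZMAT3*-KO and *ZMAT3*-WT cells. *COX7A2*, 31.4 kb away, had a log2 fold change of -0.23 (limma adjusted p = 9.95e-05). *TMEM30A*, at 46.7 kb, was at -0.01, *SENP6*, at 395 kb, at 0.01 and *MYO6*, at 543 kb, at -0.20. None of these 4 passed the 1.5-fold threshold, beside a log2 fold change of -3.96 for *COL12A1*.

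Around *COL4A5*, 7 of the 8 measured genes within the same distance lay under that threshold, including *COL4A6*, *PSMD10* (0.11), *ATG4A* (0.18), *NXT2* (0.05) and *ACSL4* (-0.10). The exception was *PRPS1*, a phosphoribosyl pyrophosphate synthetase, 788 kb away. It was at 2.36, 2.47 and 2.55 log2 CPM in *ZMAT3*-WT and at 6.84, 6.81 and 6.81 in *ZMAT3*-KO libraries, a 20.5-fold difference (log2 fold change 4.36, limma adjusted p = 2.66e-15). These genes were chosen by distance, and whether the difference belongs to the clone or the knockout cannot be told apart.

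*JUN* was higher in both experiments, by 0.62 in *ZMAT3*-KO cells (4.48, 4.34 and 4.38 against 5.03, 4.99 and 5.03 log2 CPM) and by 0.61 with sip53 (9.81 and 9.11 against 12.8 and 16.3 FPKM, limma adjusted p = 0.264). The collagen, laminin and integrin genes with an AP-1 match upstream, *LAMA3* and *LAMB3*, had log2 fold changes of -0.06 and 0.37 in *ZMAT3*-KO cells and -2.04 and 0.20 with sip53.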
